A study of Mus musculus with 18 samples.

Results

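The comparison set the brain of metallothionein knockout pups against that of wild-type pups after both had received lead. It used 2 of the series' 6 arrays, the pool titled Mt-KO (-/-) lead treated and the pool titled C57BL/6J (+/+) brain lead treated, chosen by their titles and by no measured value. Each array held whole-brain RNA pooled from 5 pups, so each side was 1 measurement. No test was possible, and every difference below is that between 2 pools. The difference of a gene is its log2 level in the Mt-KO lead pool minus that in the wild-type lead pool, relative to the median gene of the pair.

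Knockout (-/-) and wild-type (+/+) pups came from a brother-sister cross, after the Mt-KO allele had been crossed to C57BL/6J for at least 7 generations. Pups of both pools were injected with lead acetate at 50 mg/kg, 2 times a day with 4 hours between injections, on postnatal days 7 and 8. They were killed on day 8, 6 hours after the last injection. The other 4 pools were heterozygous (+/-) pups after lead and all 3 genotypes after saline, again 5 pups each. The labels describe every pool as male and female, and they do not say which metallothionein genes the allele alters or where. A pool of whole brains cannot tell fewer cells of a type from less RNA per cell, and nothing in it separates litter from genotype.

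Metallothioneins are small cysteine-rich proteins that bind zinc and copper, and that also bind cadmium and other toxic metals. Zinc, acting through the transcription factor MTF1, and glucocorticoids switch on Mt1 and Mt2 in most tissues, and in brain both are made mainly by astrocytes. Mt3 is the form made by neurons as well as glia, and Mt4 belongs to stratified epithelium. Lead is a developmental neurotoxicant that blocks the heme enzyme encoded by Alad, competes with or mimics calcium at channels and at protein kinase C, and can take the place of zinc in proteins.

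Genes were read through the brightest probe set that carries a single gene symbol. Of 18194 named genes, the upper 60% by mean RMA level over the 6 arrays were kept, and after 388 genes on the sex chromosomes or without a place were set aside, 10528 autosomal genes were used. The median gene was 0.10 higher on the log2 scale in the Mt-KO lead pool than in the wild-type lead pool, and this shift was taken off every difference. Levels below are RMA values as deposited, in log2, and 3 levels in a row are in the order wild-type, heterozygous, Mt-KO. Ranks of pools by these levels do not take off the array's median gene. That median was lowest in the wild-type lead pool, at 10.87, and highest in the wild-type saline pool, at 11.05. Neuronal, glial and vascular markers were present in both pools: Snap25 of neurons stood at 13.78, Mbp of oligodendrocytes at 14.30, Gfap of astrocytes at 12.62 and Cldn5 of endothelium at 11.61 in the wild-type lead pool, against 13.84, 13.95, 12.45 and 11.91 in its Mt-KO counterpart. The 2 arrays correlated at r = 0.985 across genes, within the range of 0.982 to 0.993 over all pairs of the 6 arrays. The 3' to 5' gap of the Gapdh control probe sets, a sign of RNA integrity, was 0.73 log2 units in the wild-type lead pool against 0.57 in its Mt-KO counterpart.

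Sex-linked transcripts set both Mt-KO pools apart from their label of male and female. The lead pool was low in Xist and the saline pool low in Y-linked signal. A probe set of Xist, the noncoding RNA that silences an X chromosome in female cells, read 12.76 in the wild-type lead pool but 7.14 in its Mt-KO counterpart, where the other 4 pools lay between 11.50 and 12.63. Y-linked Eif2s3y, a translation factor subunit, read 9.45 in the wild-type lead pool but 11.16 in its Mt-KO counterpart, the highest of the 6. In the Mt-KO saline pool Eif2s3y read 6.50, the lowest of the 6. Kdm5d and Uty followed the same order in a probe set other than their brightest. These sets read 7.54 and 7.31 for the wild-type lead pool, 9.13 and 9.09 for the Mt-KO lead pool, and 6.07 and 6.23 for Mt-KO saline. The brightest probe sets of Kdm5d and Uty hardly differed after lead, at -0.08 and -0.10 relative to the median gene. After saline they gave -0.31 and 0.10. In the other probe sets printed here, sex-linked transcripts moved with genotype, in one direction after lead and in the other after saline. The part of sex in the autosomal differences was not tested. Leaving out the Mt-KO lead pool leaves no pair.

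Mt1 had the most negative difference in RMA. It read 13.30 in the wild-type lead pool, 12.87 in the heterozygous and 11.71 in the Mt-KO one. After saline it read 13.17, 12.45 and 11.68 in the same order of genotypes. Both Mt-KO pools therefore lay below all other pools. Relative to the median gene, Mt1 was 1.68 log2 units, or 3.21-fold, lower in the Mt-KO lead pool, the lowest of the 10528 genes. In GC-RMA it stood at -2.32 and Gm6958, described below, was lower still at -2.50. A second Mt1 probe set, dim at 9.37 and 9.05, gave a difference of -0.42 after lead and 0.22 after saline. The brighter probe set carries the suffix that the manufacturer gives to sets able to match transcripts of several genes, so its reading can include relatives of Mt1.

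Mt2, the neighbour of Mt1, read 12.73, 12.27 and 11.82 in the 3 lead pools and 12.59, 12.05 and 11.87 in the saline pools. It was 2.00-fold lower in the Mt-KO lead pool, and again both Mt-KO pools were the lowest of the 6. Mt3 read 13.14, 13.35 and 12.98 after lead and 13.64, 13.17 and 12.88 after saline. Its difference was -0.26 after lead and -0.61 after saline, inside the 1.5-fold limit after lead and past it after saline. Mt4 was dim in every pool, between 6.19 and 6.46, and was not among the genes used. A signal that remains in a knockout says nothing about the allele unless the probe set lies in the altered stretch, and the labels do not place that stretch.

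The stretches before the annotated starts of Mt1, Mt2 and Mt3, the metallothioneins among the genes used, are printed here. After lead Mt1 and Mt2 passed the 1.5-fold limit and Mt3 did not. After saline Mt3, at -0.61, was lower than Mt2, at -0.57. The part of these sequences in the differences was not tested. Each run gives the 250 bases before the annotated start in the RefSeq table of GRCm38.p6, plus strand, with capitals marking the core of the metal response element bound by MTF1 (TGCACNC or TGCGCNC, N any base, read on both strands).
Mt1, chr8:94178839-94179088: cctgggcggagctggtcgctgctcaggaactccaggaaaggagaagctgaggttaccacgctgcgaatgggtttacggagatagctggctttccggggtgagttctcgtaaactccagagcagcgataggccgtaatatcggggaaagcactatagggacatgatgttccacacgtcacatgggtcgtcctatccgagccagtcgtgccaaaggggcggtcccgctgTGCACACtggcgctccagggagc
Mt2, chr8:94172368-94172617: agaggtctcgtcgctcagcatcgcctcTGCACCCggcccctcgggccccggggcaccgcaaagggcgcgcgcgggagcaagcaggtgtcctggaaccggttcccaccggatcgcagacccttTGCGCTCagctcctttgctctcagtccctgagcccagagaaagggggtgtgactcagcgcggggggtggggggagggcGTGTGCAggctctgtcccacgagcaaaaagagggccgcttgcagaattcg
Mt3, chr8:94152357-94152606: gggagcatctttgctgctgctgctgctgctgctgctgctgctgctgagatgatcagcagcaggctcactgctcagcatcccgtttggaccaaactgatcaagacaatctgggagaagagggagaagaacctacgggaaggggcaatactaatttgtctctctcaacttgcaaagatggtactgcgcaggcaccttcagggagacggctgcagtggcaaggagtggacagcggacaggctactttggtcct
The Mt2 window held 3 matches, 2 on the gene's strand and 1 on the other, the Mt1 window held 1, and the Mt3 window held 0. In the table of 27025 genes, 21.3% of windows of this length held at least 1 match and 1.28% held at least 3. With the 50 bases after the annotated start added, the counts were 3 for Mt1, 4 for Mt2 and 1 for Mt3. For Mt1, 2 of the 3 lay after that start, so the printed stretch does not hold all of its nearby matches. Whether the annotated starts are those used in these brains was not tested. Of these longer windows, 25.6% over all 27025 genes held at least 1 match and 2% held at least 3. The matches are letters in a window, not measured binding sites.

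**Figure D1:**
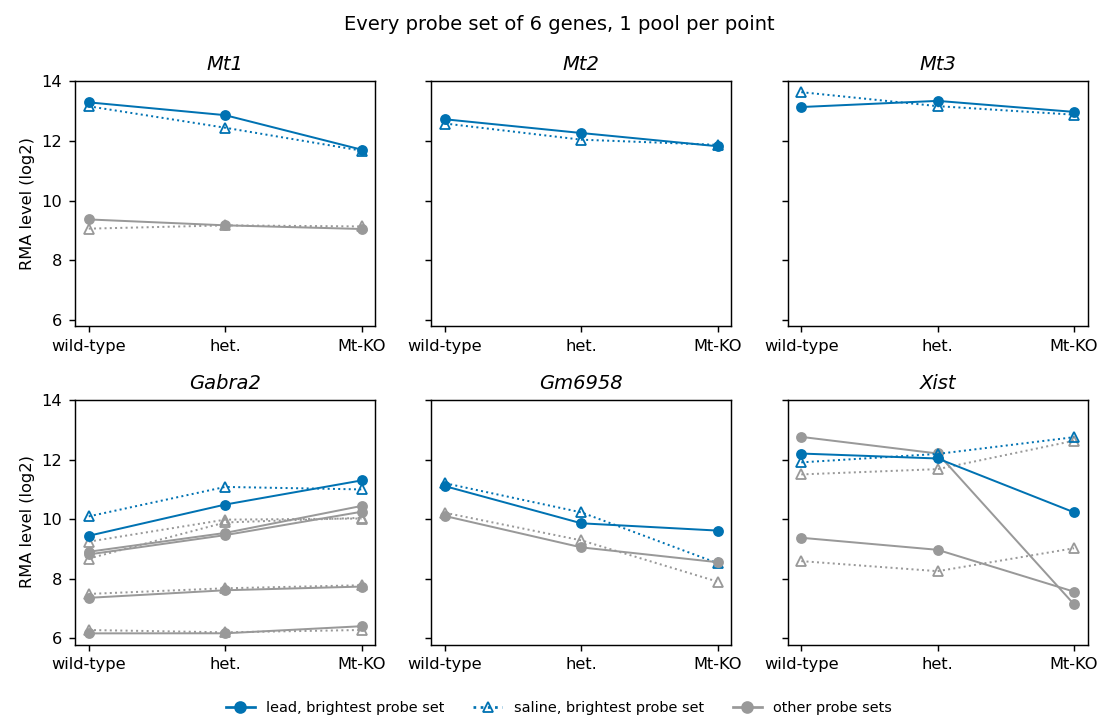
RMA level (log2) of every single-symbol probe set of 6 genes, with genotype along the horizontal axis and 1 pool per point. Filled circles and solid lines are lead pools, open triangles and dotted lines saline pools, and the brightest probe set is blue. The bright Mt1 probe set steps down to 11.71 and 11.68 in the Mt-KO pools, and Xist drops in the Mt-KO lead pool alone.

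Few genes differed strongly. At the 1.5-fold limit, 55 of 10528 genes (0.522%) were higher and 31 (0.294%) lower in the Mt-KO lead pool, or 0.817% either way. At the 2-fold limit 4 genes were higher (0.038%), namely Tmem267, Gabra2, Rbm45 and Plvap, and 3 were lower (0.0285%), namely Mt1, Mt2 and the predicted gene Gm6958, or 0.0665% either way. The 1.5-fold limit cut through a continuum: Ifrd1 at 0.5853 lay just inside and Samhd1 at 0.5838 just outside on the higher side, as did Ighg3 at -0.587 and Apoa5 at -0.584 on the lower side. The balance of directions rested on the scale. The higher genes made up 64.0% of those past the limit in RMA, 81.3% in GC-RMA, 50.8% in log2(PLIER + 16) and 89.3% in RMA without taking off the median. Both other summaries come from the same 2 arrays, so they check the arithmetic of a difference, not its repeat in other pups. In all 3 summaries 31 genes were at least 1.5-fold higher (0.294%) and 13 lower (0.123%).

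**Figure D2:**
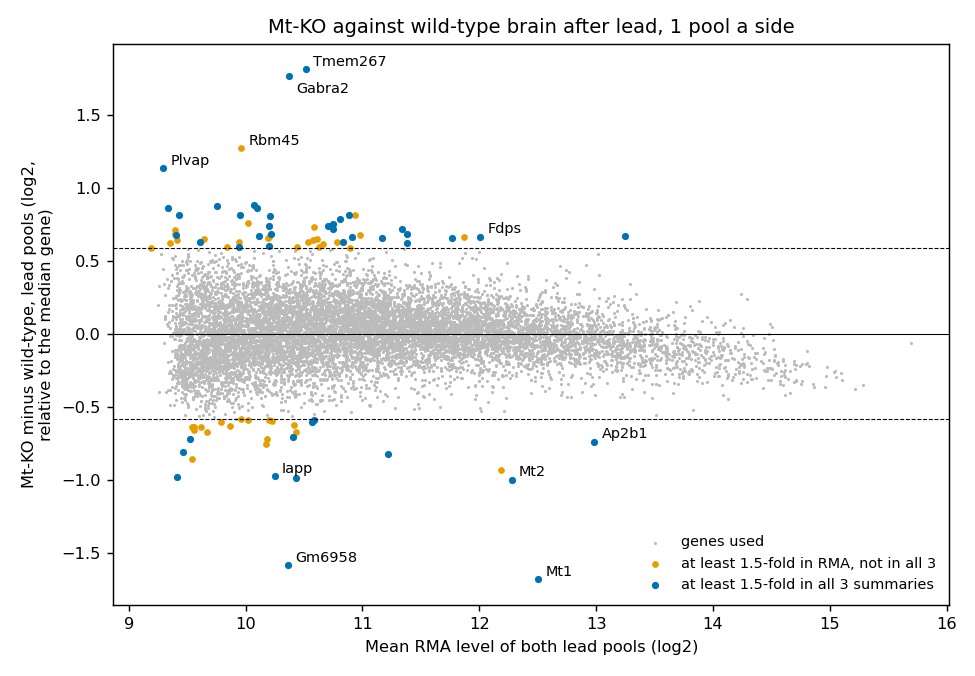
Mt-KO minus wild-type difference in the lead pools (log2, relative to the median gene) against the mean RMA level of both pools (log2), 1 point per gene, with dashed lines at 1.5-fold. Blue points pass the limit in all 3 summaries and orange points in RMA but not in all 3. The points narrow toward bright levels, and Mt1 stands alone at the lower right of the cloud.

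The genes higher in the Mt-KO lead pool were led by Tmem267 and Gabra2. Tmem267, which encodes a transmembrane protein, read 9.56 in the wild-type lead pool, 10.80 in the heterozygous and 11.47 in the Mt-KO one, with 10.48, 10.70 and 11.06 in the matching saline pools. It was 3.51-fold higher, and both wild-type pools were the lowest of the 6. Gabra2, the alpha-2 subunit of the GABA-A receptor and so part of a chloride channel that carries inhibition in the mature brain, read 9.44, 10.49 and 11.30 after lead and 10.09, 11.08 and 11.00 after saline. Its difference of 1.76 made it 3.39-fold higher, and once more both wild-type pools were the lowest.

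Gabra2 had 4 other probe sets, and all 4 were higher in the Mt-KO lead pool, at 1.44, 1.34, 0.28 and 0.14. The first pair of them gave 0.92 and 1.52 in the saline pools. The neighbours of Gabra2 in gene order, which encode other subunits of the same receptor, had smaller differences: Gabrg1 stood at 0.17, Gabra4 at 0.12 and Gabrb1 at -0.14. Of 13 listed GABA-A receptor genes 8 were used, and Gabra2 alone passed 1.5-fold. The next in size were Gabrg3 at -0.29, Gabrd at -0.24 and Gabra5 at 0.23. The median of the 8 was -0.01. The 6 nearest neighbours of Tmem267 ranged from -0.24 for Ccl28 to 0.36 for Nnt.

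Plvap and Sox18 belong to blood vessels. Plvap, which forms the diaphragms of fenestrated endothelium and is normally lost from vessels with a barrier, read 8.68, 9.62 and 9.91 in the 3 lead pools and 9.32, 9.52 and 9.82 after saline. It was 2.19-fold higher in RMA, and its difference was 2.81 in GC-RMA against 1.30 in PLIER. Its mean level passed the filter, whose cut was 9.42, only with the Mt-KO lead pool counted. Sox18, a transcription factor of endothelium, read 9.78, 10.44 and 10.61 after lead and 10.16, 10.36 and 10.43 after saline, a difference of 0.74. In both genes the wild-type lead pool was the lowest of the 6. Endothelial genes in general were less shifted: 12 of 16 were used, 7 above and 5 below the median gene, with a median of 0.09, which turned to -0.02 in the upper 40% of genes by level, and none past 1.5-fold. Tek, the angiopoietin receptor, stood at 0.52 in RMA, 0.14 in GC-RMA and 0.33 in PLIER, and Cdh5, the endothelial cadherin, at 0.32 in RMA. Flt1, the next by size, went the other way at -0.29 in RMA, but stood at 0.05 in GC-RMA and 0.11 in PLIER.

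Pan3, Nol11 and Rnpc3 act on RNA, but the list of RNA-binding and splicing factors, 23 of 24 used, had a median of 0.01 with 12 above and 11 below. Pan3, a subunit of a deadenylase that shortens poly(A) tails, read 9.58, 9.99 and 10.56 after lead and 10.32, 10.13 and 10.58 after saline, a difference of 0.88. Nol11, a nucleolar protein of ribosome assembly, read 9.76, 10.54 and 10.66 after lead and 10.10, 10.06 and 10.45 after saline, a difference of 0.81. For both, the wild-type lead pool was the lowest of the 6. The Nol11 difference rests on 1 probe set, since its 3 others stood at -0.22, 0.10 and -0.01, and those of Pan3 stood at 0.21, 0.39 and -0.13. Rnpc3, a protein of the minor spliceosome, read 8.98, 9.83 and 9.89 after lead, but 10.15, 9.83 and 9.55 after saline. Its difference of 0.81 after lead stood against -0.46 after saline, and its other probe set gave 0.19 after lead.

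Washc4, Gnptab and Ttc8 were higher as well. Washc4, of the WASH complex that builds actin on endosomes, read 8.86, 10.06 and 9.82 in the 3 lead pools and 9.60, 9.60 and 9.65 in the saline pools, so the wild-type lead pool was the one that stood off. Its 4 other probe sets ranged from -0.09 to 0.28. Gnptab, which starts the mannose-6-phosphate tag that sends enzymes to lysosomes, read 10.29, 10.63 and 11.12 after lead and 10.34, 10.34 and 10.83 after saline, so both Mt-KO pools were the highest. Its other probe sets gave 0.70 and 0.46 after lead. Ttc8, a subunit of the BBSome that moves cargo in cilia, read 9.50, 10.16 and 10.41 after lead and 9.91, 10.20 and 10.08 after saline. The differences of Washc4, Gnptab and Ttc8 were 0.86, 0.74 and 0.81.

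The rest of the 15 highest genes had differences between 0.75 and 0.87. Tpbg, the trophoblast glycoprotein that damps Wnt signalling, read 9.27, 9.82 and 10.24 after lead against 9.16, 9.42 and 9.55 after saline, and its other probe sets gave 1.11 and -0.05. Zfp365, a zinc finger protein, read 9.62, 10.26 and 10.58 after lead and 9.98, 10.01 and 10.43 after saline. Zfp267 and Lyplal1, a relative of the lysophospholipases, gave 0.79 and 0.75. For 4930402H24Rik, at 0.81, only 1 of 4 other probe sets went the same way, and the mean over its probe sets was 0.06. Across the 15 genes, 17 of 25 other probe sets were higher in the Mt-KO lead pool and 4 of them by at least 1.5-fold.

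Among the lower genes, Gm6958 came next to Mt1. It read 11.11, 9.86 and 9.61 in the 3 lead pools and 11.20, 10.23 and 8.52 after saline. Its 3.01-fold lower reading after lead was repeated by its second probe set, at -1.65, and both Mt-KO pools were the lowest of the 6. RefSeq lists Gm6958 as a predicted protein-coding gene, and its neighbours Cep97 and Zbtb11 stood at -0.32 and -0.03.

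Ap2b1 and Srek1 were also lower in the Mt-KO pools under both treatments. Ap2b1, the beta subunit of the clathrin adaptor at the plasma membrane, read 13.31, 13.20 and 12.66 after lead and 13.57, 12.74 and 12.45 after saline. Its difference was -0.74, but its other probe sets stood at 0.00 and -0.02. Srek1, a splicing regulator, read 10.71, 10.59 and 10.10 after lead and 10.67, 9.96 and 9.81 after saline, a difference of -0.71, while its 4 other probe sets ranged from -0.53 to 0.56. The Ap2b1 difference thus rests on a single probe set, and the probe sets of Srek1 differ in sign. The cause of the disagreement was not tested.

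Fam107a, a stress-responsive actin-binding protein of astrocytes and neurons, was lower in 3 of 3 probe sets. It read 11.58, 11.36 and 10.85 after lead and 11.07, 10.79 and 10.60 after saline, and its differences over the probe sets were -0.83, -0.73 and -0.28. In both treatments the Mt-KO pool was the lowest. Chd4, the helicase of the NuRD chromatin complex, read 10.82, 10.52 and 10.32 after lead and 10.75, 10.45 and 10.42 after saline, a difference of -0.60, and its other probe sets gave -0.50 and -0.05. Gpr107, a membrane protein of the secretory pathway, was at -0.59, and the long noncoding RNA 1500015A07Rik at -0.72.

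Wdr91, Bpifb1, Iapp and Tfap2c shared another pattern over the pools. Iapp, which encodes the peptide hormone amylin, read 10.69, 10.34 and 9.81 after lead but 9.62, 10.57 and 10.26 after saline. Tfap2c, a transcription factor of neural crest and epithelium, read 9.82, 9.76 and 9.11 after lead and 9.06, 10.04 and 9.48 after saline. Bpifb1, a secreted protein of airway and oral epithelium, read 9.86, 9.82 and 8.97 after lead and 9.18, 9.94 and 9.35 after saline. Wdr91, a regulator of endosome maturation, read 10.87, 10.30 and 9.98 after lead and 10.00, 10.78 and 10.11 after saline. In all 4 the Mt-KO pool was the lowest after lead, at differences of -0.98 for Iapp, -0.81 for Tfap2c, -0.99 for Bpifb1 and -0.99 for Wdr91. After saline it was the wild-type pool that was lowest, and the differences turned to 0.78, 0.56, 0.32 and 0.25. For Iapp the other 3 probe sets, all dimmer, stood at -0.02, -0.33 and -0.33 after lead. The other probe sets of Wdr91 stood at -0.10 and 0.49, those of Tfap2c at -0.10 and 0.21, and that of Bpifb1 at -0.11. Across the 13 lower genes, 18 of 24 other probe sets were lower in the Mt-KO lead pool, 2 of them by at least 1.5-fold.

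**Figure D3:**
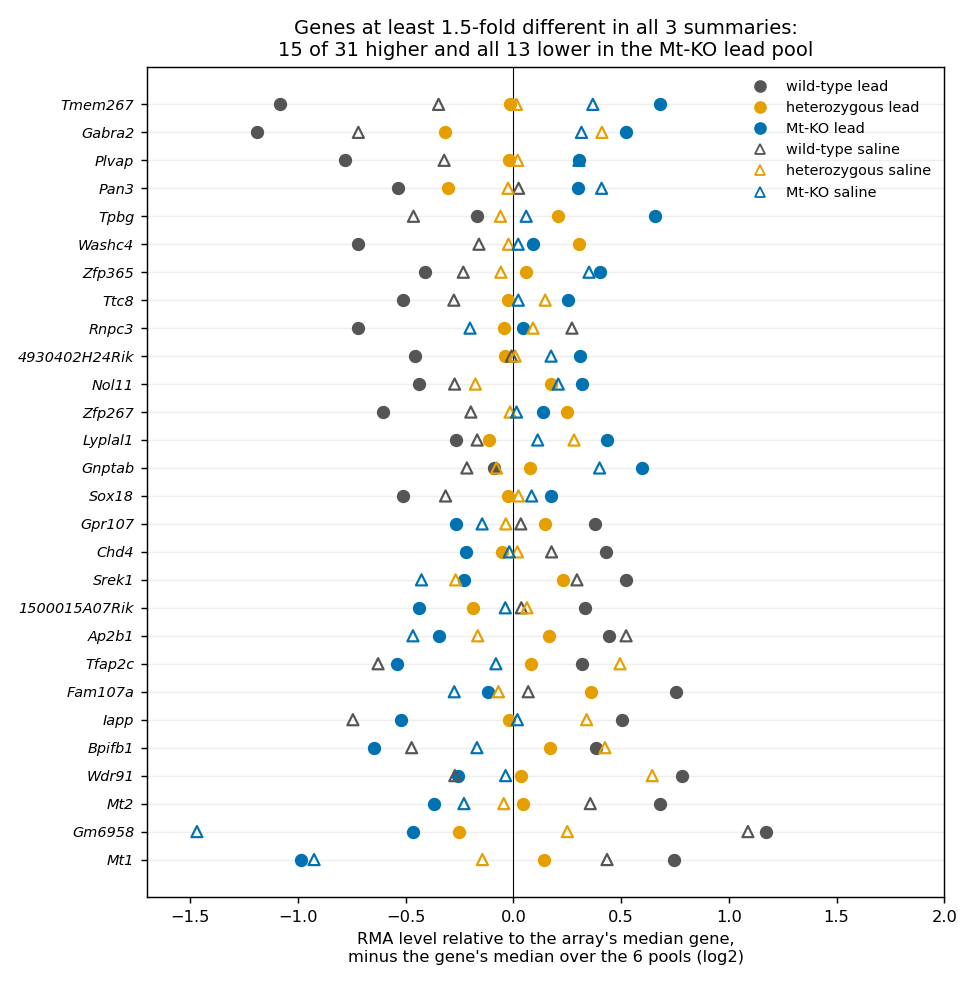
RMA level of each gene relative to its array's median gene and to the gene's median over the 6 pools (log2, horizontal axis), for 15 of the 31 higher and all 13 lower genes at least 1.5-fold different in all 3 summaries. Circles are lead pools and triangles saline pools, in grey for wild-type, orange for heterozygous and blue for Mt-KO. Mt1 and Gabra2 have both Mt-KO pools on one side of both wild-type pools, whereas Iapp and Tfap2c have the wild-type saline pool at the left edge.

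Other large differences held in RMA but not in all 3 summaries, 24 higher and 18 lower. Rbm45, an RNA-binding protein, read 9.28, 9.67 and 10.65 after lead and 9.50, 9.62 and 10.60 after saline in RMA. Its difference was 1.27 in RMA but 0.39 in GC-RMA and 0.28 in PLIER. Tspyl1, a nucleosome assembly relative, was at 0.82 after lead and 1.83 after saline, and missed the limit only in PLIER at 0.54. Rpl27a, a ribosomal protein gene whose relatives and pseudogenes can share probes, read 8.99 and 9.80 in the wild-type and Mt-KO lead pools, with 0.71 in RMA and 0.46 in PLIER. Ap4e1 and Katnal1 were at 0.76 and 0.73. On the lower side Minar2 was at -0.93 in RMA and -0.30 in PLIER, and Edn1, the vessel-constricting peptide endothelin, at -0.72 in RMA and -0.19 in GC-RMA. Sapcd2 at -0.76, Trmt10a at -0.67 and the protein-coding 5730507C01Rik at -0.86 were the others, each under 1.5-fold in GC-RMA or PLIER.

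The saline pools share no array with the lead pools, and so give the genotype difference in other pups. Of the 55 higher genes, 47 were above the median gene in the saline pair as well, where 50% of all genes used are, and 15 were at least 1.5-fold higher, where 1.37% of all genes are. The median difference of the 55 was 0.67 after lead and 0.33 after saline. Of the 31 lower genes, only 11 were below the median gene in the saline pair, 5 of them at least 1.5-fold, where 1.64% of all genes are. Their median was -0.67 after lead and 0.24 after saline. In RMA the higher genes thus mostly kept their direction in the other pups and most lower genes did not. The contrast depended on the summary and the scale: the share that kept its direction was 85.5% of the higher and 35.5% of the lower genes in RMA, 56.9% and 51.8% in GC-RMA, and 55.2% and 53.3% in RMA without subtraction of the median gene. It was 81.8% and 58.3% with the mean over probe sets, 92.0% and 77.8% in the upper 40% of genes by level, and 60.1% and 16.7% without a filter on dim genes. Among those past the limit in all 3 summaries, 28 of 31 higher and 9 of 13 lower genes went the same way after saline. The saline pair also leaned with brightness. With all genes split into 10 equal classes, gene lists centred on class 2 from the dimmest had saline medians from 0.11 to 0.30. Those centred on the brightest class had -0.48 to -0.23. The dimmest class held 10 of the 55 higher and 9 of the 31 lower genes, and the brightest 1 of each. The shares over all genes are not matched for brightness, and its part in these counts was not tested.

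In both directions the wild-type lead pool stood off in more of the genes past 1.5-fold than the Mt-KO lead pool did. Each array was set to its median gene, and each lead pool was compared with the median of the 4 pools outside the pair. For the 55 higher genes the wild-type pool was the farther one in 34 and the Mt-KO pool in 21. For the 31 lower genes the wild-type pool was farther in 18 and the Mt-KO pool in 13. How often each pool was the farther over all genes used was not counted, so these counts show nothing particular to the called genes. A gene's deviation from its median over the 6 pools had a median over the 31 lower genes of 0.41 in the wild-type lead pool but -0.37 in its Mt-KO counterpart, against -0.21 in the wild-type saline pool and -0.04 in the Mt-KO saline pool. Both Mt-KO pools lay above both wild-type pools in 44 of the 55 higher genes, where 13.7% of all genes do, and below both in 11 of the 31 lower genes, where 27.3% do. The lead arrays entered the choice of these genes, so these last counts are descriptions. The shares over all genes beside them are not matched for brightness.

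Past 1.5-fold in both pairs were 21 genes, 24.4% of the 86 in the lead pair and 6.62% of the 317 in the saline pair. Of them 15 were higher in the Mt-KO pool both times, 5 were lower both times, and Iapp turned. The 15 were Tmem267, Gabra2, Rbm45, Plvap, Zfp365, Tspyl1, Gnptab, Rpl27a, Tmem181a, Nhlh2, Wdfy1, Exoc8, Nipsnap2, Gatd1 and Ssbp4, and the 5 were Mt1, Gm6958, Ap2b1, Srek1 and Megf11. These are named for passing in both pairs, after their values were seen. Plvap and Rpl27a also passed the filter on mean level only through Mt-KO pools in which they were high. Exoc8, a subunit of the exocyst that tethers secretory vesicles, gave 0.63 after lead and 1.40 after saline. Megf11, a receptor that spaces retinal neurons, gave -0.60 and -1.23. Over all 10528 genes the differences of the 2 pairs correlated at r = 0.0891, a description in which genes are not replicates. Sex-linked Xist and Eif2s3y went opposite ways in the 2 pairs, and the part of sex in the differences of these 21 genes was not tested. The saline pair was the wider one, with an SD over genes of 0.256 against 0.202 in the lead pair and 3.01% of genes past 1.5-fold. Its wild-type pool also had the largest Gapdh 3' to 5' gap of the 6, at 1.19.

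**Figure D4:**
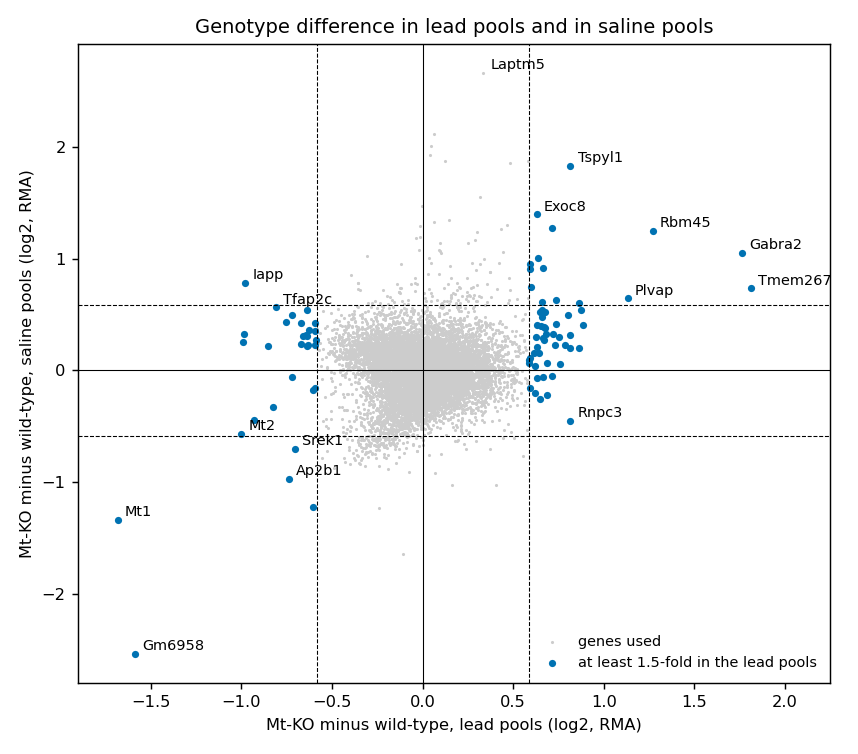
Mt-KO minus wild-type difference in the saline pools (vertical, log2) against that in the lead pools (horizontal, log2), 1 point per gene, each relative to its pair's median gene, with dashed lines at 1.5-fold. Blue points are the 86 genes past 1.5-fold in the lead pools. The higher genes lie mostly above the zero line and the lower genes on both sides of it, with Mt1 and Gm6958 at the bottom left.

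Genes around the Mt1 locus were described apart, because a backcrossed allele can keep a stretch of its donor chromosome. Of the 100 used genes nearest to Mt1, 50 on each side in gene order, Mt2 was at least 1.5-fold lower and 0 were that much higher. Their median was 0.03, with 53 above the median gene. The furthest otherwise were Lpcat2, an enzyme of phospholipid remodelling, at -0.50 and Rbl2, a relative of the retinoblastoma protein, at 0.48. Nup93 and Herpud1, next to Mt1, stood at 0.07 and 0.11.

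Gene lists of metal handling, stress, synapse, brain region and cell type moved little. In 48 lists with at least 4 genes used, 545 genes in all, the medians ran from -0.24 to 0.17, and 3 genes were at least 1.5-fold higher (Gabra2, Fdps and Rpl27a) and 3 lower (Hoxc5, Gh and Srek1). A low limit, a log2 difference of at least 0.32 that 5.67% of all genes passed upward and 4.8% downward, served to count members. Differences also followed brightness: with all genes split into 10 equal classes, the median was -0.08 in the dimmest class, 0.05 in the sixth and -0.09 in the brightest. Of the 48 medians, 20 kept their sign under every alternative that gives a list median.

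Of the metal handling genes, zinc transporters leaned upward. Of 22 listed 20 were used, 13 above and 7 below the median gene, with a median of 0.13 and 1 past the low limit. Slc30a7, which loads zinc into the Golgi, read 10.54 and 10.98 in the wild-type and Mt-KO lead pools, a difference of 0.34, and Slc30a5, another Golgi loader, gave 0.30. Slc30a3, which fills synaptic vesicles with zinc, gave -0.31. After saline the median of the list was -0.01. Copper genes had a median of 0.12 over 10 of 14 listed, and 0.15 after saline. Sod1, the copper and zinc superoxide dismutase, read 12.63, 12.56 and 13.20 in the 3 lead pools and 13.24, 12.93 and 13.38 after saline. Its difference was 0.47, and Ccs, its copper chaperone, gave 0.36. Dbh, the copper enzyme that makes noradrenaline, was at -0.51 in RMA but 0.09 in GC-RMA. Iron genes had a median of 0.01 over 11 of 16.

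Among targets of lead and of oxidative stress, Alad stood out. This heme enzyme, the classical target of lead, read 9.20, 9.58 and 9.82 in the 3 lead pools and 9.66, 9.50 and 9.64 after saline. Its difference was 0.52 after lead and 0.13 after saline, and the wild-type lead pool was the lowest. The other heme genes lay near the median gene, with 9 of 13 used and a list median of 0.04. NRF2 targets had a median of 0.08 over 9 of 16, with Gclm, of the enzyme that limits glutathione synthesis, at 0.35 and its partner Gclc at 0.17. Gclm differed by 1.09 in GC-RMA and 0.16 in PLIER. Heat shock chaperones had a median of -0.08 over 11 of 15, or 0.02 without subtraction of the median gene, led by Hspb8 at -0.34 and Hsp90aa1 at -0.31. Chaperones of the endoplasmic reticulum had a median of 0.01, with Manf at 0.47, Creld2 at 0.44 and Calr at -0.33. The protein kinase C isoforms, used in 8 of 9, had a median of -0.09 and none past the low limit.

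Cholesterol synthesis and the cell cycle had the highest medians among the groups. Cholesterol genes, 17 of 22 used, had 13 above and 4 below, a median of 0.15 and 4 past the low limit upward. Fdps, farnesyl diphosphate synthase, read 11.63, 12.27 and 12.39 after lead and 12.09, 12.10 and 12.23 after saline, a difference of 0.66. Tm7sf2, Mvd and Msmo1, enzymes of the same pathway, gave 0.48, 0.36 and 0.34. In all 4 the wild-type lead pool was the lowest of the 6 in levels as deposited, which are not set to each array's median gene. Cell cycle genes, 19 of 24 used, had 17 above and 2 below and a median of 0.17, with Cenpa, the centromere histone, at 0.42, Mcm4, of the replication helicase, at 0.39, and Plk1, a mitotic kinase, at 0.38. After saline the median was 0.07 for cholesterol synthesis and 0.19 for the cell cycle. The cell cycle median stayed between 0.10 and 0.27 and that of cholesterol synthesis between 0.12 and 0.25 under every alternative.

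Pan-neuronal and synaptic vesicle genes lay below the median gene, whereas calcium channel subunits, at 0.05, and striatal neuron genes, at 0.03, did not. Of 12 pan-neuronal markers 11 were used, 9 of them below, with a median of -0.24, and Nefm, the medium neurofilament, was at -0.41, Gap43, of growing axons, at -0.28 and Map2, of dendrites, at -0.26. Of 16 genes of the synaptic vesicle and its fusion machinery 15 were below, with a median of -0.13 and none past the low limit. Slc17a7, the vesicular glutamate transporter of cortex, was at -0.31 and Slc32a1, the transporter for GABA, at 0.26. Brightness moved with both results, since 9 of the 11 and 10 of the 16 belong to the brightest class, whose median is -0.09. The pan-neuronal median ran from -0.32 to -0.06 and the vesicle median from -0.14 to -0.03 over the alternatives. After saline they were -0.48 and -0.23. Long noncoding RNAs, 9 of 10 used, were all below, with a median of -0.23, Neat1 at -0.40, Rian at -0.35 and Meg3 at -0.31.

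Glial lists had medians below the median gene after lead too. Myelin and oligodendrocyte genes, 15 of 19 used, had 12 below and 4 past the low limit downward, with a median of -0.15 that ran from -0.22 to -0.06 over the alternatives. Mbp, myelin basic protein, read 14.30, 14.72 and 13.95 after lead and 14.08, 14.22 and 13.61 after saline, a difference of -0.44. Cnp, Sox10 and Mobp, a myelin enzyme, the master transcription factor of the lineage and a late myelin protein, gave -0.42, -0.37 and -0.53. After saline Mbp and Cnp were lower again, at -0.33 and -0.22, but Sox10 stood at 0.07 and Mobp at 0.02, and the list median was -0.03. Astrocyte genes, 17 of 18 used, had 13 below and a median of -0.11, which ran from -0.24 to -0.02 over the alternatives. Of the 17, 8 belong to the brightest class, whose median is -0.09, and after saline the list median was -0.11. Glul, glutamine synthetase, read 13.74, 13.71 and 13.28 after lead and 13.98, 13.28 and 13.05 after saline, a difference of -0.55, with Slc1a2, the main glutamate transporter, at -0.42 and Aldoc at -0.34. Microglia genes had a median of -0.11 over 11 of 18, with Laptm5 at 0.33 and Csf1r at -0.27. After saline the microglia median was 0.13, with 9 above and 2 below.

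Most of the listed Hox, pituitary, and muscle, bone and skin genes were not among the genes used. Hox genes, of hindbrain and spinal cord, had a median of -0.19 over 8 of 27 and 0.30 after saline, and Hoxc5 at -0.63 was 1.5-fold lower in RMA but not in GC-RMA at -0.21. Pituitary genes had 4 of 14 used, all 4 below, with a median of -0.11. Gh, growth hormone, read 9.83, 11.48 and 9.29 after lead, highest in the heterozygous pool outside the pair, and 9.32, 9.32 and 9.40 after saline. Its difference after lead was -0.64 in RMA, -0.11 in GC-RMA and -0.34 in PLIER. Pericyte and smooth muscle genes had a median of -0.23 over 9 of 14, which turned to 0.02 with the mean over probe sets. Muscle, bone and skin genes had a median of -0.03 over 4 of 12. The part of dissection in the differences was not tested.

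Some lists that were low or high after saline were close to the median gene after lead. Subunits of the respiratory chain, 20 of 22 used, had a median of -0.01 after lead and -0.35 after saline. Ribosomal proteins had -0.05 and -0.44, and protocadherins, adhesion molecules of neurons, 0.11 and -0.30. The brightest class held 15 of the 20 respiratory chain genes and 11 of the 13 ribosomal genes used. Pan-neuronal and synaptic vesicle genes, also mostly of that class, had saline medians of -0.48 and -0.23. The part of brightness in these medians was not tested. Of region markers, thalamic Tcf7l2 and Lhx9 were at 0.55 and 0.42 after lead and -0.77 and -0.44 after saline. They were the largest of 8 thalamic genes used, 4 above and 4 below, with a median of 0.01 after lead and -0.05 after saline. In GC-RMA Lhx9 was at -0.17 after lead. Purkinje cell genes had a median of -0.03 after lead and 0.26 after saline, with Pcp2 at -0.36 and 0.73. In granule cell genes Pax6 was at 0.47 and Zic2 at -0.43 after lead, in the same directions as after saline at 0.60 and -0.82. Immediate early genes, a readout of neuronal activity, had a median of 0.02 with 7 above and 6 below, and Egr4 at 0.29 and Egr1 at -0.26.

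**Figure D5:**
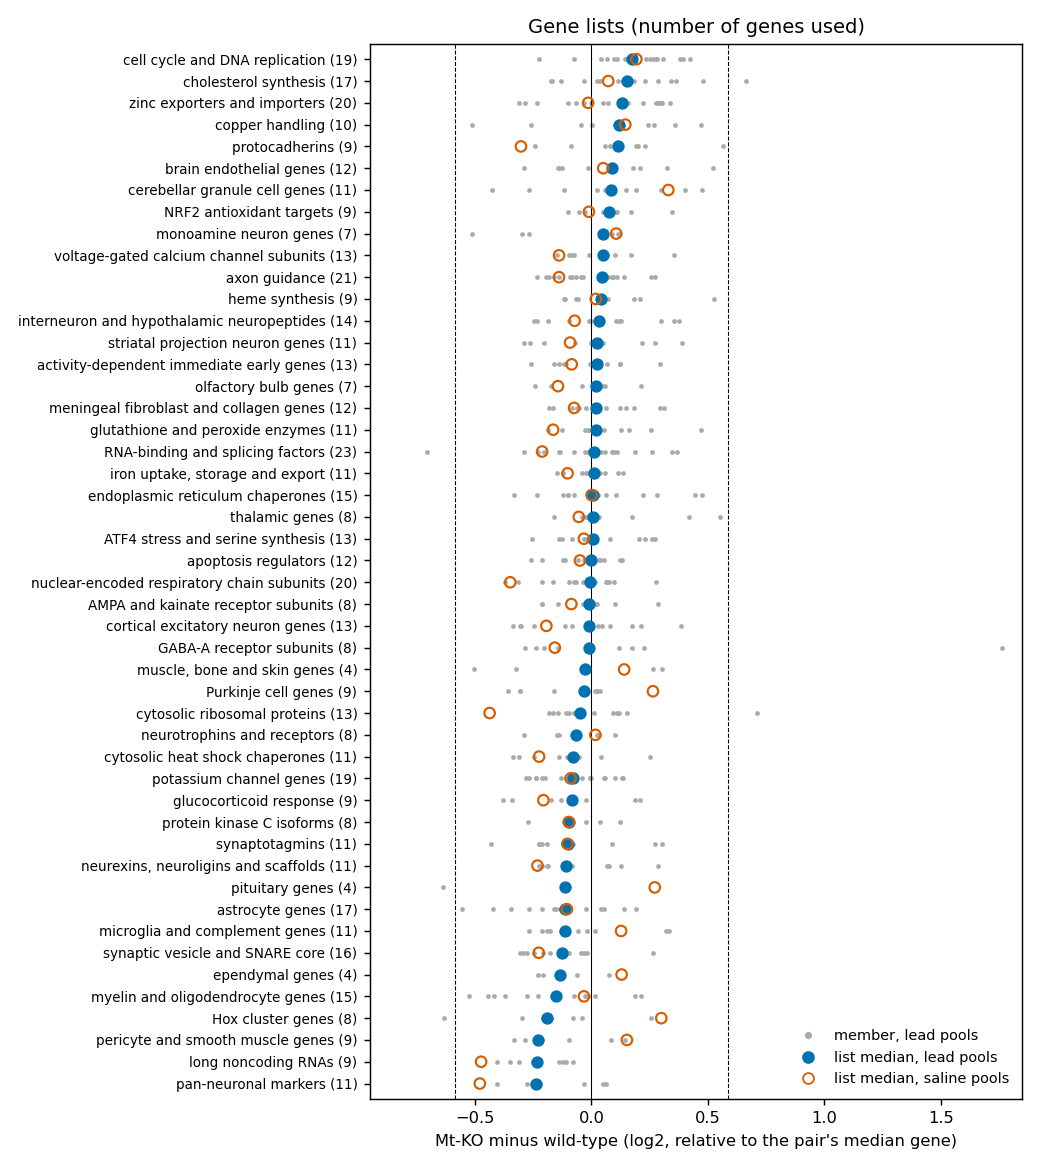
Mt-KO minus wild-type difference (log2, relative to the median gene) for 48 gene lists with at least 4 genes used, ordered by the list median in the lead pools, with the number of genes used in brackets. Grey points are members and blue points medians in the lead pools, open orange circles medians in the saline pools, and dashed lines mark 1.5-fold. Lead medians span -0.24 to 0.17, and Gabra2 is the one member far to the right.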

How the data were processed

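Brain RNA was measured on Mouse Genome 430 2.0 arrays, 6 in all, each summarised in 3 ways in 18 deposited columns. The labelling kit named in the labels belongs to whole-transcript arrays, whereas the deposited probe set names are those of the 3' array. The authors deposited RMA and GC-RMA values in log2 and PLIER values as intensity, and the submitters' processing notes name Partek, RMA, GCRMA and PLIER. Versions and settings are not given in the sources used here.

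RMA was the main summary. PLIER was used as log2(PLIER + 16). Of 45101 probe sets 34958 have 1 gene symbol, 932 several and 9211 none, and 34754 were found in the RefSeq table of GRCm38.p6, which gave chromosomes and gene order. For each pair the difference of the median gene was subtracted. Calculations used Python 3.11.15 with pandas 2.3.3 and numpy 2.4.6 and were tested on simulated data. With 1 array a side no test was run, and the number of arrays limits the precision. Named genes were the 15 highest and 15 lowest at least 1.5-fold different in all 3 summaries (13 lower genes passed), the 5 highest and 5 lowest that missed this, metallothioneins, sex-linked genes, and up to 4 members of a list by size of difference. The pair, rules and lists were chosen with earlier results of these data known.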

Additional observations from a re-analysis of the deposited data

Results flagged for a closer look

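Iapp was at -0.98 in the lead pools and 0.78 in the saline pools (log2, Mt-KO minus wild-type), past 1.5-fold in opposite directions. The difference between the pairs was not tested.

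The brightest Xist probe set was at -2.07 in the lead pools and 0.99 in the saline pools, and Eif2s3y was at 1.62 and -3.80. These turns between the pairs were not tested either.

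Of 2472 probe sets that carry no single gene symbol and are as bright as the genes used, 8 were at least 2-fold different in the lead pools in all 3 summaries, 3 higher and 5 lower. In RMA alone 9 were, or 0.364%.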

How the results depend on the processing

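No paired analysis was possible because each genotype and treatment has 1 pool, and for the same reason no array could be left out. Against 55 higher and 31 lower genes past 1.5-fold, the counts were 615 and 141 in GC-RMA, 97 and 94 with log2(PLIER + 16), and 103 and 101 with log2(PLIER + 1). Without subtracting the median they were 125 and 15. Without a filter on dim genes they were 148 and 72 of 17405 genes, and in the upper 40% 25 and 9 of 7014. The mean over probe sets gave 33 and 12, a 2-fold limit 4 and 3, and a log2 limit of 0.32 gave 597 and 505. Quantile normalization gave 62 and 28, inclusion of X and Y genes 57 and 34, and centring within 10 classes of brightness, chosen after seeing the data, 64 and 27. Of the main genes, 43 higher and 16 lower were shared with GC-RMA and 36 and 19 with log2(PLIER + 16). Of these 12 alternatives 9 or 10 give a value for a named gene, since the fold limits give none and dim genes drop out of the upper 40%. In those, all 38 named genes kept their sign and 13 stayed past 1.5-fold. Genes named for passing in all 3 summaries were bound to keep sign and limit in GC-RMA and log2(PLIER + 16). All these values come from the same 2 arrays, so the kept signs are no repeat in other pups. Mt1 ran from -2.32 to -1.03, Mt2 from -1.50 to -0.91 and Gabra2 from 1.01 to 1.86. The spread of differences was wider among dim genes, with an SD of 0.26 in the dimmest class and 0.14 in the brightest, so small differences of dim genes are the least firm.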
